A study of Mus musculus with 13 samples.

Results

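The genes of endothelial cells and of the blood-brain barrier were examined in whole mouse brains at embryonic day 18.5, in embryos lacking Meg3 and in wild-type embryos. Meg3 is a long non-coding RNA expressed from the maternal chromosome. The set was a list of 47 genes, each measured by the probe set with the highest mean signal among those annotated to that symbol alone. Of the 47 genes, 45 had such a probe set and 44 passed the filter on weak signals, out of 12918 genes tested and 18193 with a named probe set. Ly6c1 and Ly6a had no probe set annotated to them alone. Esm1, a proteoglycan secreted by endothelial tip cells, was below the filter, with a signal of 46.1 ± 15.4 (SD, n = 6) in wild-type and 42.0 ± 13.6 (SD, n = 7) in knock-out brains.

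Expression was measured on 13 Affymetrix arrays, each from 1 embryo, 6 wild-type and 7 Meg3 knock-out, from 5 litters. Litter 219 gave wild-type replicates 1 and 2 and knock-out replicate 2, litter 238 gave wild-type 3 and knock-outs 3 and 4, and litter 250 gave wild-types 4 and 5 and knock-outs 5 and 6. Litter 262 gave wild-type 6 and knock-out 7, and litter 148 gave knock-out 1 only. The sources used here do not give the strain, the sex, the deleted part of Meg3 or the parental origin of the deletion. The title of the series places its question in the expression of angiogenic genes.

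Endothelial cells line all blood vessels. In the brain they are joined by continuous tight junctions, form few pores or transport vesicles, and carry dedicated transporters that move nutrients in and drugs out, which together make up the blood-brain barrier. The barrier is induced during embryonic life, in large part by Wnt ligands from neural cells, while vessels are still growing into the brain under the control of VEGF, angiopoietin, Notch and BMP signals.

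The targeted gene separated the genotypes. Meg3 had a signal of 4955 ± 1374 (SD, n = 6) in wild-type and 378 ± 106 (SD, n = 7) in knock-out brains, and it fell by 3.64 on the log2 scale (SE 0.20, limma adjusted p = 1.3e-07). Correlations between arrays over the genes tested ran from 0.893 to 0.990, and the lowest median correlations were those of wild-type 1 (0.942), wild-type 2 (0.955) and knock-out 1 (0.960). RNA integrity was read from the Actb control probe sets as the signal at the 3' end over that at the 5' end, which was 2.92 in wild-type 2 and 1.81 in knock-out 1, against 1.32 to 1.495 on the other 11 arrays. All 10 neuronal marker genes and all 12 measured endothelial surface and secreted protein genes were above the filter. Above the filter were also 11 of 13 measured mural cell genes, 14 of 14 of meninges and fibroblasts, 10 of 12 of leukocytes and microglia, 5 of 7 of red cells and 8 of 10 of choroid plexus.

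Across the 44 genes, no difference between the genotypes passed the threshold. At a limma adjusted p under 0.05 the count was 0 of 44 higher and 0 of 44 lower in knock-out brains, beside 0.0232% of all genes tested. At an unadjusted p under 0.05 it was also 0 of 44, beside 1.97% of all genes (1.71% higher and 0.255% lower). The mean was higher in knock-out brains for 24 of 44 (54.5%), beside 65.4% of all genes. This count was 12 after quantile normalization, 17 after trimmed-mean scaling and 5 after median centring. The share of all genes was not counted after these scalings, and median centring lowered the log2 difference of every gene by the same amount. Counts after rescaling, here and below, therefore cannot be read against a share of all genes. The median log2 difference was 0.01, beside 0.04 over all genes. The differences ran from -0.36 for Cdh5 to 0.38 for Vwf, and 5 genes were beyond 0.3 in either direction. Each of the 44 confidence intervals (95%) included 0 and lay within a log2 difference of 1 in either direction, that is, within a 2-fold change on the log2(signal + 16) scale. In 0 of 44 genes were the signals of the genotypes free of overlap, beside 0.0774% of all genes. In whole-brain RNA, fewer endothelial cells and less RNA per endothelial cell cannot be told apart.

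**Figure D1:**
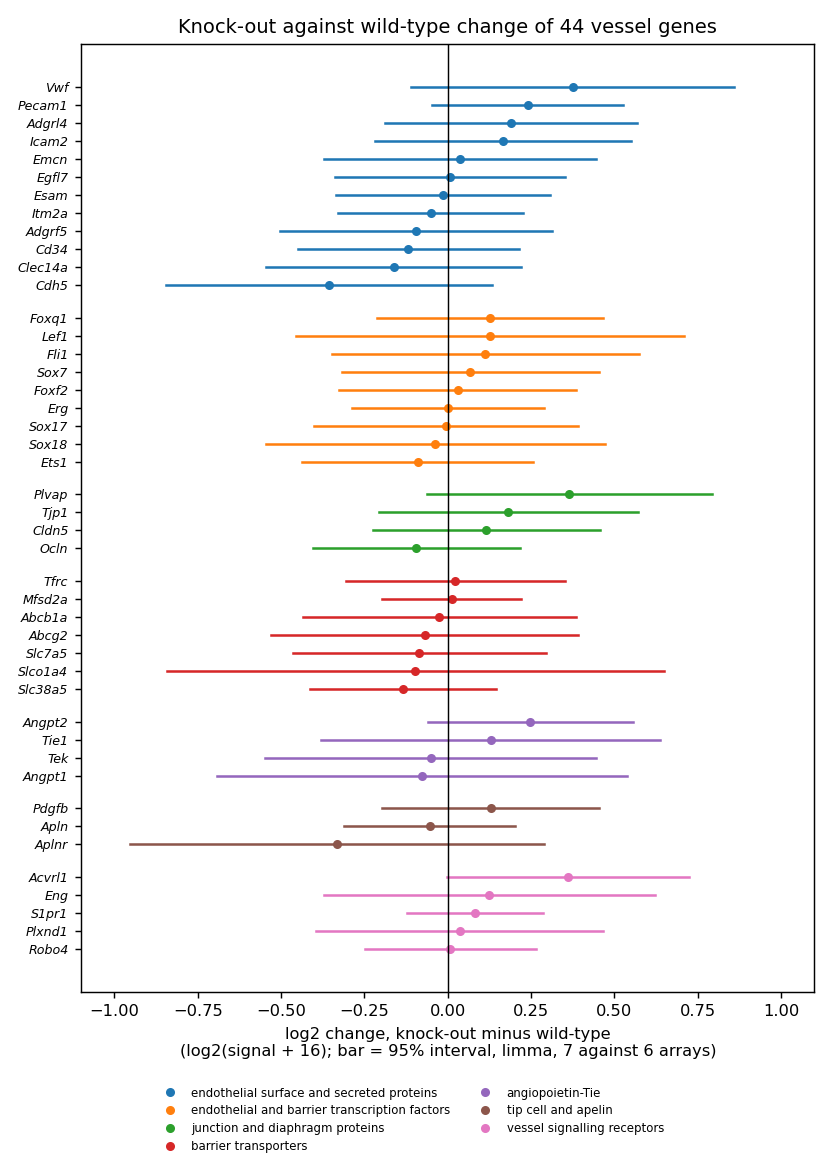
Log2 difference (knock-out minus wild-type, horizontal axis, log2(signal + 16)) of each of the 44 tested genes, grouped by role, with points for the limma estimate and bars for its 95% confidence interval. Every bar crosses 0, and the points run from -0.36 (Cdh5) to 0.38 (Vwf).

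Among endothelial surface and secreted proteins, the mean was higher in knock-out brains for 6 of the 12 tested genes and lower for 6, with a median log2 difference of -0.00, and the number higher was 4 after quantile normalization or trimmed-mean scaling and 2 after median centring. The pair with the largest differences in this group lay on opposite sides. Vwf, the clotting glycoprotein stored in endothelial granules, ranged from 253.8 to 549.8 with a median of 483 in wild-type brains and from 287 to 843.5 with a median of 590.3 in knock-out brains. The 4 highest arrays were all knock-out (litters 238 and 250), while the lowest 2 were wild-type 6 and knock-out 7, littermates of opposite genotype. The log2 difference was 0.38 ± 0.23 SE (limma adjusted p = 1.00), and 0.24 without wild-type 6. The Vwf difference rose to 0.53 when knock-out 7 was dropped. Dropping the whole of litter 262 gave 0.39. Cdh5, the cadherin of endothelial adherens junctions, ranged from 178.8 to 500.1 with a median of 345.2 in wild-type brains and from 132.8 to 343.1 with a median of 294.7 in knock-out brains. Knock-out 7 was the lowest array and wild-type 2 the highest, and 6 of the 7 knock-out arrays lay within the wild-type range. The difference was -0.36 ± 0.23 SE on the log2 scale (limma adjusted p = 1.00). It was -0.21 without knock-out 7, -0.53 without wild-type 6 and -0.38 without litter 262.

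Pecam1, an adhesion molecule at endothelial cell contacts, ranged from 202.7 to 313.4 with a median of 250.2 in wild-type brains and from 203.7 to 364.9 with a median of 318.3 in knock-out brains. Of the 7 knock-out arrays, 4 were above the highest wild-type array, and knock-out 1 lay beside the lowest wild-type array. Its log2 difference was 0.24 ± 0.13 SE (limma adjusted p = 1.00). The remaining surface and secreted genes differed less. Adgrl4, an adhesion receptor of growing vessels, differed by 0.19 and Icam2, a leukocyte ligand, by 0.17. Emcn, an endothelial sialomucin, differed by 0.04 and Egfl7, a secreted angiogenic factor, by 0.01. This was the lowest of the 4 tested probe sets of Egfl7, and the others gave 0.16, 0.18 and 0.37. Clec14a, a lectin-like receptor of vessels, differed by -0.16 and Cd34, a sialomucin also carried by blood progenitors, by -0.12. The values were -0.09 for Adgrf5, -0.05 for Itm2a and -0.01 for Esam, an adhesion molecule of endothelial tight junctions.

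The transcription factors comprised ETS factors (Erg, Ets1, Fli1) and SOXF factors (Sox7, Sox17, Sox18), which drive endothelial gene expression, and Lef1, Foxf2 and Foxq1, of which Lef1 transmits Wnt signals to DNA. Of the 9, 5 had a higher and 4 a lower mean in knock-out brains, with a median log2 difference of 0.03. The number higher was 1 after quantile normalization, 4 after trimmed-mean scaling and 0 after median centring. All 9 differences lay between -0.09 (Ets1) and 0.13 (Foxq1 and Lef1). Lef1 varied most among embryos of the same genotype, from 241.6 to 595.7 with a median of 392.3 in wild-type and from 182.1 to 760.9 with a median of 444.8 in knock-out brains. The lowest and the highest array were both knock-out. Ets1 depended on the probe set: the 3 tested ones gave differences of -0.11, -0.09 and 0.44. The last, which does not have the highest signal, was the only 1 of the 63 tested probe sets of these genes at an unadjusted p under 0.05 (limma adjusted p = 1.00).

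Knock-out brains had the higher mean for 3 of the 4 junction and diaphragm genes and the lower for 1 (median log2 difference 0.15). The number higher was also 3 after quantile normalization or trimmed-mean scaling, and 1 under median centring. Plvap forms the diaphragms of fenestrated vessels and is lost from brain vessels as the barrier matures. Its signal ranged from 133.5 to 255.4 with a median of 193.9 in wild-type brains and from 205.2 to 459.9 with a median of 220.7 in knock-out brains. All but knock-out 1, the highest of the 13 arrays, lay within the range of the wild-type arrays. Plvap differed by 0.36 ± 0.20 SE (limma adjusted p = 1.00), and without knock-out 1 and wild-type 2, the arrays with the highest Actb ratios, it was 0.14. Without wild-type 1 it was 0.45. Cldn5, the main tight junction claudin of the barrier, ranged from 1237 to 2679 with a median of 1879 in wild-type brains and from 1595 to 2310 with a median of 2128 in knock-out brains. All knock-out arrays lay within the wild-type range, and the difference was 0.12 ± 0.16 SE. The difference was 0.18 for Tjp1, a scaffold under the junction, and -0.09 for Ocln, a membrane protein of the junction.

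Of the barrier transporters, 2 of 7 had a higher and 5 of 7 a lower mean in knock-out brains, with a median log2 difference of -0.07. Quantile normalization, trimmed-mean scaling and median centring each gave 0 of 7 higher. Mfsd2a, which carries lipids with docosahexaenoic acid into the brain and restrains vesicle transport, ranged from 612.6 to 796.5 with a median of 657.4 in wild-type and from 555.3 to 739.4 with a median of 692 in knock-out brains. Its difference, 0.01 ± 0.10 SE, had an interval from -0.20 to 0.22. Slco1a4, an organic anion transporter, was the most variable of the 44 genes, ranging from 21.0 to 194 with a median of 138.1 in wild-type and from 59.8 to 161.8 with a median of 111.3 in knock-out brains. Its difference was -0.10 ± 0.35 SE, so that its interval reached from -0.84 to 0.65. The lowest signal, 21.0, was that of wild-type 1, and without this array the Slco1a4 difference was -0.45. It was 0.10 without wild-type 2 and knock-out 1, the arrays with the highest Actb ratios. The differences were -0.02 for the drug efflux pump Abcb1a and -0.07 for the drug efflux pump Abcg2. They were -0.08 for the large neutral amino acid transporter Slc7a5, -0.13 for the glutamine transporter Slc38a5 and 0.02 for the transferrin receptor Tfrc. The other tested probe set of Tfrc gave 0.60 ± 0.44 SE.

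The angiopoietin-Tie group holds the ligands Angpt1, which stabilises vessels, and Angpt2, which opposes it in many settings, and the receptors Tek and Tie1. Angpt2 ranged from 121.6 to 240.9 with a median of 188.3 in wild-type and from 161.3 to 255.7 with a median of 230.7 in knock-out brains. Of the 7 knock-out arrays 2 were above the highest wild-type array, and the lowest knock-out array was knock-out 1. Angpt2 differed by 0.25 ± 0.14 SE (limma adjusted p = 1.00), by 0.14 without wild-type 1 and by 0.32 without knock-out 1. Angpt1 differed by -0.08 ± 0.29 SE, Tek by -0.05 ± 0.23 SE and Tie1 by 0.13 ± 0.24 SE. In each of these 3 genes the wild-type littermates 1 and 2 stood far apart. Their signals were 71.5 and 293.4 for Angpt1, 136 and 460 for Tek, and 329 and 109.7 for Tie1.

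**Figure D2:**
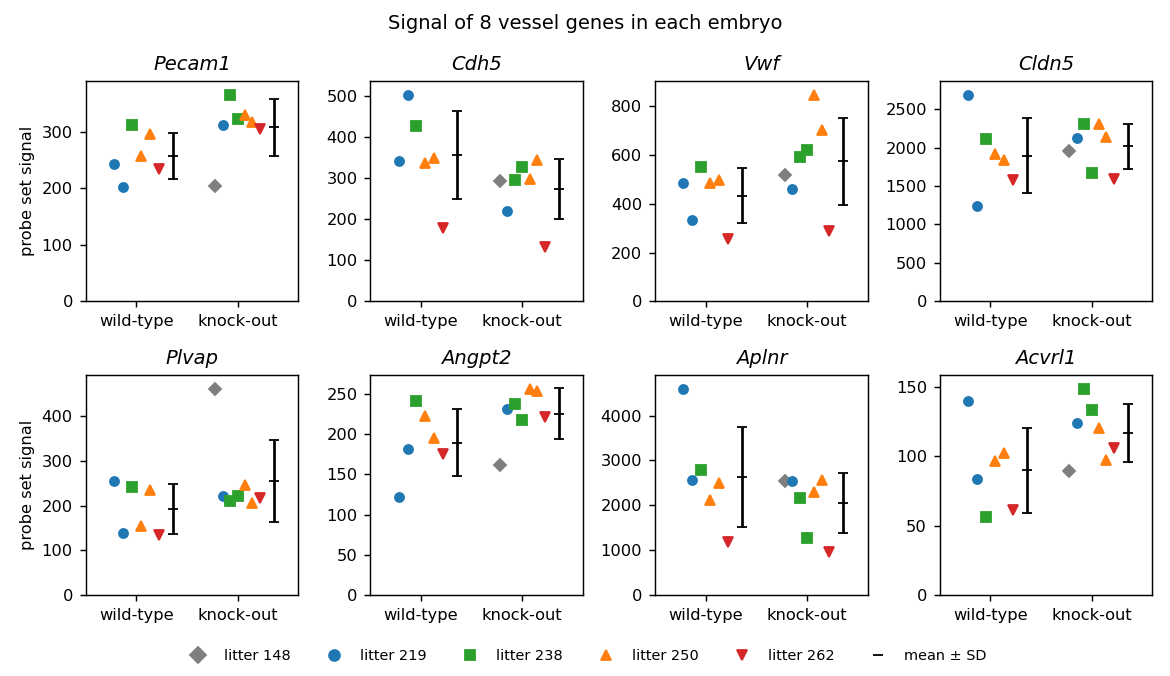
Signal (vertical axis, linear intensity from 0) of selected genes in each of the 6 wild-type and 7 knock-out brains, 1 point per embryo coloured by litter, with the group mean and SD as bars. The ranges of the genotypes overlap in every panel, and the litter 262 points of Cdh5 and Vwf are the lowest 2 of 13.

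Of the tip cell and apelin genes, Aplnr, the receptor of apelin on growing veins and vessels, had the largest difference. It ranged from 1194 to 4588 with a median of 2531 in wild-type and from 953 to 2573 with a median of 2294 in knock-out brains. Wild-type 1 was the highest array and knock-out 7 the lowest. Aplnr differed by -0.33 ± 0.29 SE (limma adjusted p = 1.00), whereas the other tested probe set of Aplnr gave 0.02. Leaving out wild-type 1 gave -0.15, leaving out knock-out 7 gave -0.16 and leaving out wild-type 6 gave -0.53. Its ligand Apln differed by -0.05 ± 0.12 SE, and Pdgfb, the tip cell signal that recruits pericytes, by 0.13 ± 0.15 SE.

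All 5 vessel signalling receptors had a higher mean in knock-out brains, with a median log2 difference of 0.08, but 2 did after quantile normalization, 3 after trimmed-mean scaling and 1 after median centring. Acvrl1 is a BMP receptor of endothelial cells, and Eng is its co-receptor. Acvrl1 ranged from 56.2 to 140 with a median of 90.0 in wild-type and from 89.5 to 148.1 with a median of 120 in knock-out brains. Most knock-out arrays fell within the wild-type range, and 1 was above it. Acvrl1 differed by 0.36 ± 0.17 SE, with the smallest p among the 44 genes (limma adjusted p = 1.00). Eng differed by 0.13 ± 0.23 SE, S1pr1 by 0.08 ± 0.10 SE, Plxnd1 by 0.04 ± 0.20 SE and Robo4 by 0.01 ± 0.12 SE. Without wild-type 2, the array with its lowest signal, Eng differed by -0.10. Its sign was that of the main comparison in 26 of 31 alternatives. S1pr1, the sphingosine-1-phosphate receptor, was the gene with the smallest spread within genotypes, at an SD of 0.13 on the log2 scale.

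The comparison was repeated between littermates, because 4 of the 5 litters held both genotypes. For litters 219, 238, 250 and 262 in turn, the median log2 difference of the 44 genes was 0.19, -0.08, 0.08 and 0.00, beside 0.16, -0.04, 0.03 and -0.03 over all genes. The number of genes higher in knock-out littermates was 31, 15, 28 and 22 of 44. The share of all genes higher within each litter was not counted, so these numbers cannot be read against it. With litter as a block in the limma fit, 0 of 44 passed the adjusted threshold (0.0232% of all genes did), and 4 of 44 (9.09%) had an unadjusted p under 0.05, beside 2.09% of all genes. The log2 differences of these 4 were 0.28 ± 0.10 SE for Pecam1, -0.41 ± 0.14 SE for Cdh5, 0.33 ± 0.13 SE for Vwf and 0.46 ± 0.18 SE for Acvrl1 (limma adjusted p = 1.00 for each). The block leaves out knock-out 1, the only embryo of its litter, from the genotype difference.

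A gene counted as going one way within litters when its sign was the same in all 4. Pecam1, Vwf, Adgrl4, Tjp1 and Acvrl1 were higher in knock-out embryos in each litter (5 of 44, 11.4%, beside 8.0% of all genes). The differences of Pecam1 were 0.46, 0.13, 0.22 and 0.36 in litters 219, 238, 250 and 262. Those of Vwf were 0.19, 0.14, 0.63 and 0.17. Acvrl1 had 0.17, 1.12, 0.10 and 0.66, so that its difference came mostly from litters 238 and 262. Cdh5 was the only gene lower in each litter (1 of 44, 2.27%, beside 3.28%), by -0.87, -0.44, -0.10 and -0.39. Pecam1 and Cdh5, both proteins of endothelial cell contacts, thus had opposite signs in every litter.

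The 44 genes were then compared between litters. In litter 262, wild-type 6 was above the 13-array median in 3 of 44 genes and knock-out 7 in 5 of 44, against 13 to 33 of 44 on the other 11 arrays. The mean log2 deviation of the 44 genes from their 13-array means was -0.34 in wild-type 6 and -0.32 in knock-out 7, against -0.09 to 0.17 on the other arrays. Over all genes tested, 30.8% were above their median in wild-type 6 and 27.8% in knock-out 7.

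**Figure D3:**
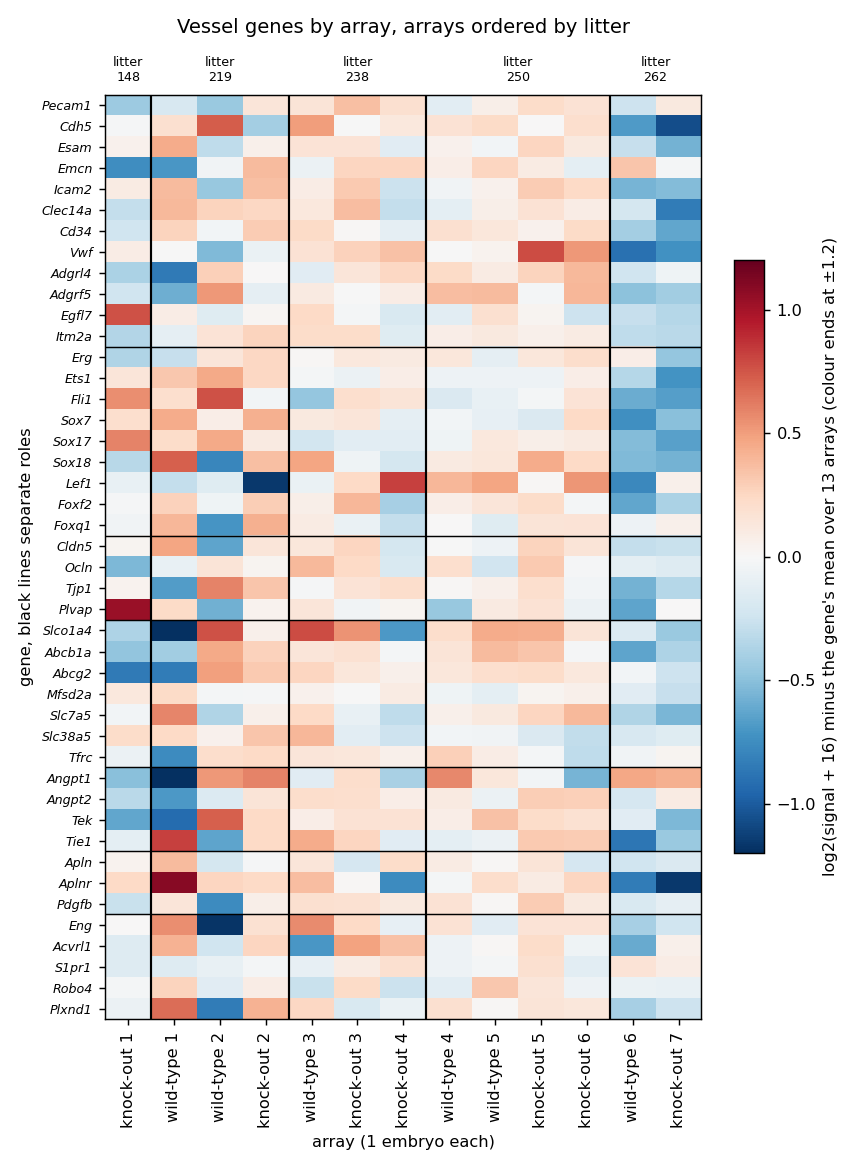
Log2 deviation of each of the 44 genes (rows, grouped by role) from its mean over the 13 arrays (columns, ordered by litter), on a colour scale from low to high. The columns of litter 262, wild-type 6 and knock-out 7, are low in most rows, with 3 and 5 of 44 genes above the median.

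Both arrays of litter 262 were below all other arrays in 12 of 44 genes (27.3%), beside 9.72% of all genes, and above all others in 0 of 44 (beside 2.90%). The 12 were the surface and secreted genes Cdh5, Icam2, Cd34, Vwf and Egfl7, the transcription factors Ets1, Fli1, Sox7 and Sox17, the transporters Mfsd2a and Slc7a5, and Aplnr. Cd34 was 392.7 and 336 in the litter and 443.5 to 654.8 elsewhere. Vwf was 253.8 and 287 against 331.5 to 843.5. Cdh5 was 178.8 and 132.8 against 219.2 to 500.1. This pattern was noticed in the data and then counted. Without wild-type 2 and knock-out 1 the count was 20 of 44 (beside 15.7% of genes), and without wild-type 1 as well it was 25 of 44 (beside 19.1%).

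A test of litter with genotype in the same limma fit was added after seeing the data. It gave 0 of 44 genes at an adjusted p under 0.05 (beside 0.0387% of all genes) and 12 of 44 (27.3%) at an unadjusted p under 0.05, beside 15% of all genes. Sox17 had the smallest p (limma adjusted p = 0.0926). Its signal was 188.6 and 170.9 in litter 262 and 427.6 in litter 148. Between them lay litter 238 with 235.6 to 252.4, litter 250 with 267 to 302.7 and litter 219 with 298.6 to 385.6. The litters of Sox17 thus followed one another with an overlap of litters 250 and 219 alone. Without wild-type 2 and knock-out 1, 1 of 44 genes, Cdh5, passed (limma adjusted p = 0.0447, beside 0.573% of genes).

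Knock-out 1, the only array of litter 148, had its own pattern. It was the lowest of the 13 arrays for Emcn, Itm2a, Ocln, Abcg2 and S1pr1 (5 of 44, 11.4%, beside 6.91% of genes) and the highest for Egfl7, Sox17 and Plvap (3 of 44, 6.82%, beside 17%). Both its Actb ratio and its low correlation with other arrays set this array apart, and their part in these values was not tested. The arrays of litter 219 were above all others for 1 of 44 genes, Ets1 (2.27%, beside 0.658% of genes), and those of litters 238 and 250 for 0 (beside 0.232% and 0.434%). Below all others, the count was 0 of 44 in each of these 3 litters (beside 0.689%, 0.194% and 0.0232%).

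Litter 262 was also set against the other arrays in the other lists, beside the 9.72% of all genes with both of its arrays below all others and the 2.90% with both above. Both arrays were below all others in 13 of 27 other endothelial genes, 12 of 17 vessel guidance and angiopoietin partner genes, 9 of 14 genes of meninges and fibroblasts and 6 of 10 genes of blood leukocytes and microglia. The counts were 3 of 11 mural cell genes, 3 of 13 other junction and caveolae genes, 4 of 16 other barrier transporters, 4 of 15 barrier Wnt and inducer genes, 2 of 5 red cell genes and 0 of 8 choroid plexus genes. The summed signal of the Wnt and inducer genes was 27017 and 28455 in the litter, inside the 26210 to 31154 of the other arrays. A sum is weighted to the most abundant genes of a list, and the mean log2 deviation of these genes was low. It was -0.24 in wild-type 6 and -0.34 in knock-out 7, against -0.04 to 0.13 on the other arrays. The summed signal of the 14 meningeal and fibroblast genes was 9740 and 8269 in the litter and 13172 to 24542 elsewhere. Neuronal genes went the other way, with 0 of 10 below and 3 of 10 above all others, and summed signals of 115549 and 115078 against 89080 to 104273. The part of these cell types in the endothelial values was not tested.

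**Figure D4:**
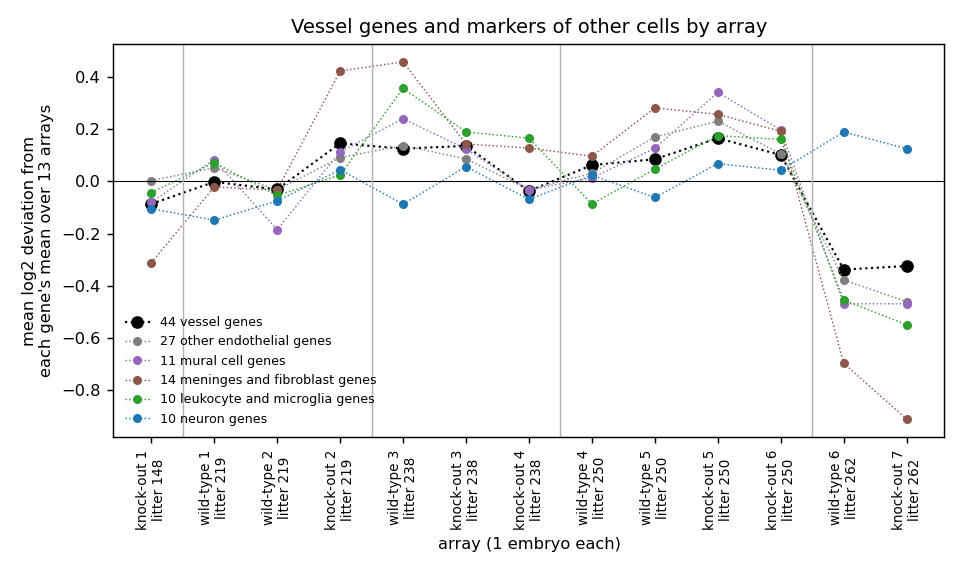
Mean log2 deviation from the 13-array mean (vertical axis) of the 44 endothelial and barrier genes (black) and of marker lists of other cells (colours), for each array ordered by litter, with dotted lines as a guide only. The endothelial mean is -0.34 and -0.32 in the litter 262 arrays and -0.09 to 0.17 elsewhere.

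Marker lists of other cells did not pass the threshold for genotype either, at 0 genes of each list. Summed signals of the 11 tested mural cell genes were 6115 to 9043 in wild-type and 6253 to 9716 in knock-out brains. The 10 tested leukocyte and microglial genes had sums of 2500 to 4820 and 2403 to 4163, and the meningeal genes 9740 to 24542 and 8269 to 22265. The 8 choroid plexus genes had sums of 23231 to 39167 and 9136 to 32261. In knock-out brains 7 of 8 were lower in mean (median log2 difference -0.46), while 65.4% of all genes were higher. The count was also 7 of 8 after quantile normalization and trimmed-mean scaling, and 8 of 8 after median centring. The mean log2 deviation of these genes was -1.22 in knock-out 4 and -1.16 in knock-out 7. On the other knock-out arrays it was -0.07 to 0.37. In wild-type 3 it was 1.09, and on the other wild-type arrays -0.28 to 0.32. Neuronal genes summed to 89080 to 115549 and 94491 to 115078, and the 5 red cell genes to 2108 to 4552 and 2049 to 4146. At an unadjusted p under 0.05 were the pericyte gene Higd1b (log2 difference 0.23), the microglial receptor Cx3cr1 (0.31) and the globin gene Hba-a2 (0.50), each higher in mean in knock-out brains (limma adjusted p = 1.00). The part of these cells in the endothelial values was not tested.

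Embryos of the same genotype and litter were compared as well. In wild-type 1 and wild-type 2 of litter 219, the median absolute log2 difference of the 44 genes was 0.65 (0.52 over all genes), and 13 of 44 differed over 2-fold (29.5%, beside 21.9% of genes). The genes lower in wild-type 1 were led by Slco1a4 (log2 difference -2.49), Angpt1 (-1.82), Tek (-1.65), Abcg2 (-1.33) and Tjp1 (-1.27). Those higher in wild-type 1 were led by Eng (1.73), Plxnd1 (1.51), Sox18 (1.5), Tie1 (1.46), Foxq1 (1.11) and Cldn5 (1.1). The receptors Tek and Tie1 thus differed in opposite directions. In the littermate pairs wild-type 4 and 5, knock-out 3 and 4 and knock-out 5 and 6, the medians were 0.10, 0.15 and 0.18 (0.14, 0.18 and 0.15 over all genes), with 0, 1 and 0 of 44 over 2-fold. Wild-type 1 and 2 had the lowest median correlations with the other arrays (0.942 and 0.955), and their Actb 3' to 5' ratios were 1.34 and 2.92. The part of RNA integrity in the gap between them was not tested.

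For 16 other genes the means of the genotypes differed by less than either SD. They are given here as mean ± SD over 6 wild-type and 7 knock-out embryos. The tight junction scaffold Tjp1 had 1815 ± 598 in wild-type and 1992 ± 287 in knock-out brains, and the tight junction protein Ocln had 304 ± 53.3 in wild-type and 286 ± 57.5 in knock-out brains. Among transporters, the efflux pump Abcb1a had 199 ± 60 in wild-type and 192 ± 42.9 in knock-out brains. For the efflux pump Abcg2 the signal was 634 ± 173 in wild-type and 599 ± 143 in knock-out brains. The interval of each of these 4 junction and transporter genes included 0.

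Both amino acid transporters were lower in mean in knock-out brains, with Slc7a5 at 2229 ± 577 in wild-type and 2087 ± 454 in knock-out brains and Slc38a5 at 496 ± 78 in wild-type and 452 ± 83.1 in knock-out brains. Tfrc, which brings in transferrin-bound iron, had 1395 ± 311 in wild-type and 1388 ± 162 in knock-out brains. The co-receptor Eng had 583 ± 238 in wild-type and 591 ± 71.2 in knock-out brains, a wild-type SD over 3 times that of the knock-out embryos. Wild-type 2 was at 241.1, and wild-type 1 and 3 were at 838.8 and 843.6. The guidance receptor Plxnd1 had 900.1 ± 317 in wild-type and 884 ± 151 in knock-out brains, and Robo4, a receptor that steadies vessels, had 141 ± 26.9 in wild-type and 140.4 ± 17.5 in knock-out brains.

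Of the transcription factors, Erg had 125 ± 15.4 in wild-type and 126 ± 25.8 in knock-out brains, and Fli1 had 253 ± 101 in wild-type and 267 ± 67 in knock-out brains. Sox7 had 186 ± 49.9 in wild-type and 194 ± 42.9 in knock-out brains. Sox18 had 378 ± 147 in wild-type and 355 ± 95.3 in knock-out brains. The forkhead factors also overlapped between genotypes, with Foxf2, which acts in mural cells as well, at 141 ± 30.2 in wild-type and 145 ± 34 in knock-out brains, and Foxq1 at 182 ± 46.5 in wild-type and 197 ± 33.6 in knock-out brains.

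Within genotypes the median SD of the 44 genes on the log2 scale was 0.34, beside 0.27 over all genes, and 34 of 44 were above that gene median. The SDs ran from 0.13 (S1pr1) to 0.72 (Slco1a4). Where several probe sets of a gene were tested, as for 16 genes, the signs differed for 6: Itm2a, Ets1, Sox17, Ocln, Abcb1a and Aplnr. Across the 63 tested probe sets of these genes 0 passed the adjusted threshold.

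The other genes of the vessel and barrier programme were counted in lists. At an adjusted p under 0.05, 0 genes passed in any of them. Among 27 other endothelial genes, knock-out brains had the higher mean for 14 and the lower for 13 (7 higher after quantile normalization, 12 after trimmed-mean scaling, 4 after median centring; median log2 difference 0.03), and the smallest p were those of Mcam, an endothelial adhesion molecule (0.23), Ephb4, the venous ephrin receptor (-0.67), and Ptprb, the phosphatase that acts on Tek (0.22). Other junction and caveolae genes were 7 higher and 6 lower of 13 (3, 5 and 1 higher under the same scalings), led by the junction proteins F11r (-0.18), Pard3 (0.12) and Cldn1 (-0.19). Other barrier transporters were 13 higher and 3 lower of 16 (6 higher after quantile normalization, 7 after trimmed-mean scaling, 3 after median centring), with the insulin receptor Insr at 0.25 (1 of 16 at an unadjusted p under 0.05, limma adjusted p = 1.00), Lrp8 at 0.21 and the taurine transporter Slc6a6 at 0.16. Barrier Wnt and inducer genes were 7 higher and 8 lower of 15 (3, 3 and 1 higher under these scalings), with Ndp (-0.14), Wnt7b (0.25) and Shh (-0.16) the 3 of smallest p. Vessel guidance and angiopoietin partner genes were 6 higher and 11 lower of 17 (3, 6 and 1 higher), with Unc5b (0.23), Id1 (0.18) and Igfbp3 (0.11).

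Promoter windows (250 bases before to 50 after a RefSeq start, build GRCm38.p6) were available for 27 of the 47 listed genes, in 40 windows, some of them overlapping starts of one gene. ETS factors bind a core of GGA, and the letters CGGAAG and AGGAAG were searched on both strands. At least 1 of them stood in 24 of 40 windows (60%), beside 15265 of 32851 windows of all genes (46.5%). The SOX letters ACAAAG and ACAATG, on both strands, stood in 10 of 40 (25.0%), beside 28.6% of all windows. The windows of 2 receptors and a surface gene described above are printed to show the range, with the ETS letters in capitals. Tie1 (chr4:118489800-118490099, minus strand) held 3 matches, Cd34 (chr1:194938571-194938870, plus strand) 1, and Tek (chr4:94739039-94739338, plus strand) 0 with 1 SOX match. The matches are a description of these letters and not of binding, and the arrays did not measure binding.
Tie1: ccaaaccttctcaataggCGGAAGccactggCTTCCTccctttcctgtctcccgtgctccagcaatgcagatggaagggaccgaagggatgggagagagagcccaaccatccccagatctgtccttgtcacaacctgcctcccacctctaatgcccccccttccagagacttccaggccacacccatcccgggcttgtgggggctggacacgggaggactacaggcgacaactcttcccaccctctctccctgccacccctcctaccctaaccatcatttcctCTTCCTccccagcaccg
Cd34: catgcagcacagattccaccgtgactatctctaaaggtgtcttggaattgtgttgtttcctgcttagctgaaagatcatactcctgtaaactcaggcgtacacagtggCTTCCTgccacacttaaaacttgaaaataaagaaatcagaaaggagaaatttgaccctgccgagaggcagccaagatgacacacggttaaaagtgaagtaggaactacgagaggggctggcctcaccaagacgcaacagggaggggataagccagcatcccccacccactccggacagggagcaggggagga
Tek: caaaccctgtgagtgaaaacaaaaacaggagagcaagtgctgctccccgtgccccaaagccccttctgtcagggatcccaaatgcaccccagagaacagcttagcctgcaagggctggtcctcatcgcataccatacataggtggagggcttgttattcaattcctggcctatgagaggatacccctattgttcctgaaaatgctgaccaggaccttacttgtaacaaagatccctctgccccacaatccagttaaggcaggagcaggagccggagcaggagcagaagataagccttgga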

How the data were processed

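Per the labels' protocols, 5 µg of total RNA, isolated by a lipid tissue kit, was labelled with biotin in a one-cycle reaction. The authors deposited intensities per probe set on a linear scale. Software and scaling are not stated in the sources used here. The mean after trimming 2% at each end was 454 to 540 per array. The number of arrays limits the precision. Of 45101 probe sets, 64 were controls, 34945 had 1 gene symbol, 932 several and 9160 none, and symbols were set against the GRCm38.p6 RefSeq table.

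Signals were taken as log2(signal + 16), which understates the change of weak genes. Probe sets above the 40th percentile (signal 56.9) were kept, with the highest mean signal per gene. Genotypes were compared without a litter term in a two-sided limma 3.58.1 test (lmFit, eBayes; R 4.3.3). P-values were adjusted by Benjamini-Hochberg over 12918 genes, at a threshold of 0.05. Plots used matplotlib 3.10.9 in Python 3.11.15. The fit was tested on simulated data.

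The members and lists were chosen with earlier results of these data known. Named are all 47 listed genes, Meg3, and up to 3 tested genes of smallest p per pathway or marker list. The other genes so named, by log2 difference, are Abcc9 (0.21) and Des (0.31) of mural cells, Bgn (-0.33), Fbln1 (0.19) and Dcn (0.22) of meninges, Fcer1g (-0.21) and Aif1 (0.15) of leukocytes and microglia, Bpgm (-0.07) and Alas2 (-0.14) of red cells, Clic6 (-0.84), Sostdc1 (-0.61) and Kcne2 (-0.73) of choroid plexus, and Dcx (0.16), Map2 (0.16) and Rbfox3 (-0.12) of neurons.

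The litter was read from the leading number of the embryo label. Alternatives were the pseudocount, filter, scaling, probe set rule, litter and replicate blocks, a covariate for the Actb ratio, and leaving out arrays or litters. The litter test, the counts by litter 262 and leaving out wild-type 1, wild-type 2 and knock-out 1 together were added after seeing the data. The sources state that the embryos are biological replicates. Replicate numbers do not pair the samples by litter. Wild-type and knock-out arrays numbered 1, 4 and 6 came from different litters. Same-number correlations of deviations ran from -0.26 to 0.40, and 3 of 6 were over 0.1. Those of wild-type and knock-out littermates ran from -0.11 to 0.57, so this measure cannot show whether samples are paired.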

Additional observations from a re-analysis of the deposited data

Results flagged for a closer look

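In 88 groups of 6 or 7 arrays, 1 array of a group stood apart for 8 genes; chance marks about 1 in 20 groups, or 4.4 of 88. Knock-out 1 accounted for 4 of them: its signal was the lowest knock-out value for Pecam1 (203.7, the next being 305.4) and Angpt2 (161.3, the next 217.7), and the highest for Egfl7 (715.6, the next 426.1) and Plvap (459.9, the next 245.6). Knock-out 7 was the lowest knock-out array for Ets1 (404.6, the next 643.4) and Mfsd2a (555.3, the next 667.5). Wild-type 6 was the lowest wild-type array for Foxf2 (85.3, the next 135.3), and wild-type 1 the lowest for Tfrc (805.0, the next 1333).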

How the results depend on the processing

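The count of endothelial and barrier genes past the adjusted threshold was 0 of 44 in the main comparison and in all 31 alternatives. The lowest adjusted p of any of them was 0.635, under median centring. The count at an unadjusted p under 0.05, 0 in the main comparison, was 1 with a pseudocount of 1 (Acvrl1), 2 under median centring (Cdh5, Slc38a5), 4 with litter as a fixed block, 1 with litter as a random block (Acvrl1) and 1 with the mean of all probe sets. It was 1 without litter 219, 2 without litter 262 (Cdh5, Vwf), 2 without the 2 arrays of highest Actb ratio and 2 without wild-type 1, wild-type 2 and knock-out 1. Leaving out each array in turn gave 0 to 3: 2 without wild-type 1, 3 without knock-out 1 (Pecam1, Angpt2, Acvrl1), 1 each without wild-type 3, 5 or 6 or knock-out 6 or 7, and 0 otherwise. The share of all genes at an unadjusted p under 0.05 was counted only for the main comparison (1.97%) and the fixed litter block (2.09%). In the other alternatives these counts therefore cannot be read against a share of all genes. The median log2 difference was -0.19 under median centring, and -0.04 to 0.07 when leaving out each array. The sign of 10 of 44 genes was the same in every alternative that tested them: Pecam1, Cdh5, Clec14a, Cd34, Vwf, Plvap, Slc38a5, Angpt2, Aplnr and Acvrl1. The count in the litter test was 1 without the 2 arrays of highest Actb ratio (beside 0.573% of all genes) and 2 without wild-type 1, wild-type 2 and knock-out 1 (beside 1.08%). The genes lowest in litter 262, 12 in the main comparison (beside 9.72%), were 17 after quantile normalization (beside 13%), 19 under median centring (beside 18.3%), 20 and 25 in those same leave-outs (beside 15.7% and 19.1%), so that the share over all genes was higher in these settings too. With the Actb ratio as a covariate, 0 genes had an unadjusted p under 0.05, 25 of 44 had a higher mean and the median log2 difference was 0.01. The cause of these changes was not tested.

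With the replicate number as a block, which drops knock-out 7, the median log2 difference was 0.07, 2 genes had an unadjusted p under 0.05 (Vwf, Plvap) and 0 passed the adjusted threshold. The numbers do not pair the samples by litter, since wild-type 1 and knock-out 1, for example, came from different litters. Of the wild-type arrays, 1 of 6 correlated best with its own number.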
